A study of Mus musculus with 15 samples.

Results

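The genes that make cholesterol, and those that sense sterols and control SREBP2, were followed in the liver of newborn mice. The set holds 29 genes, named one by one for their place in the pathway, by a rule that uses no measured value, although earlier results of these data were known when it was written. All 29 were found among the 27554 genes measured. They are 20 enzymes of cholesterol synthesis, 6 genes of SREBP processing and 3 genes of sterol transport and receptor turnover. The 20 are counted with Acss2, which supplies acetyl-CoA, and Ggps1, which leads into a side branch. Livers came from 15 pups of the C57BL/6J background on postnatal day 1, measured with 1 array each. The 5 wild-type pups were littermates of 10 pups, here called KO, whose maternal chromosome lacked the microRNA cluster that runs from miR-379 to miR-410. Blood glucose divided the KO pups into 3 normoglycaemic ones (labelled KO_normoglycemic) and 7 hypoglycaemic ones (labelled KO_hypoglycemic). The design text describes the former as mildly and the latter as severely hypoglycaemic. Blood glucose was 58.6 ± 9.56 mg/dl in wild type (SD, n = 5), 48 ± 6.93 mg/dl in normoglycaemic KO (SD, n = 3) and 19.9 ± 9.34 mg/dl in hypoglycaemic KO (SD, n = 7). Since glucose defined the KO groups, their comparison cannot tell apart glucose and whatever else sorted with it. Litters are not given for single pups, so p-values measure the spread between these pups.

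Cholesterol is built from acetyl-CoA through mevalonate, isoprenoid units, squalene and lanosterol, and the liver is a main site of this synthesis. SREBP2, the transcription factor that switches on these enzymes, is held in the endoplasmic reticulum by SCAP and the INSIG proteins while sterols are plentiful. When sterols fall, SCAP carries SREBP2 to the Golgi, where the site-1 and site-2 proteases free its active part. Insulin and feeding are known to favour hepatic sterol synthesis, and fasting to lower it.

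Levels are given as log2 levels, the base-2 logarithm of the array signal minus that of the same array's 75th percentile, so that a difference of 1 is a doubling of signal. They compare libraries for 1 gene and not 1 gene with another. All 29 genes lay well above background on all 15 arrays. The 8 hepatocyte markers, albumin and transthyretin among them, were also well above background everywhere, with summed signals, as multiples of the 75th percentile, between 4339 and 5570 (wild type), 4867 and 5221 (normoglycaemic KO), and 4529 and 5187 (hypoglycaemic KO). Transcripts of exocrine pancreas were uneven. The summed signal of 15 such genes was 1550 in normoglycaemic KO replicate 2, 262 in hypoglycaemic KO replicate 3 and 212 in wild-type replicate 2, and from 12.7 to 52.7 in the other libraries; 10 to 15 of the 15 were well above background in every library. Mirg, a non-coding RNA of the deleted cluster's locus, checked the labels. Its log2 level was 1.12 to 1.84 in wild type and -2.56 to -2.45 in normoglycaemic KO. In hypoglycaemic KO it was -2.78 to -0.99 in 6 libraries but 0.89 in replicate 2, near the wild-type range, so this is the library labelled hypoglycaemic KO replicate 2 and results are also given without it. In whole liver, fewer cells of a type and less RNA per cell cannot be told apart.

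Promoter stretches of the genes that the results turn on are printed here because SREBP2 acts through such sequences. They are the 250 bases before the start site, 5′ to 3′ on the gene's strand, from RefSeq on GRCm38.p6. Capitals mark TCACNCCA, a core of the sterol regulatory element, and CCAAT, the box bound by the partner factor NF-Y, each searched on both strands, so that the latter can appear as ATTGG. The first 4 had the steepest slopes above 0 on glucose, given further on, among the genes with an entry, Srebf2 encodes SREBP2 itself, and Hsd17b7 went the other way.
Hmgcs1, chr13:119690101-119690350, plus strand: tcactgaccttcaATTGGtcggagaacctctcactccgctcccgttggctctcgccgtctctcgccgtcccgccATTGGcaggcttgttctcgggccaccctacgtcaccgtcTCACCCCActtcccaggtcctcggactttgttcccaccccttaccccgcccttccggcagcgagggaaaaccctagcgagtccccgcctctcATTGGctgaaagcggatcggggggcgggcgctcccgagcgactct
Idi1, chr13:8885356-8885605, plus strand: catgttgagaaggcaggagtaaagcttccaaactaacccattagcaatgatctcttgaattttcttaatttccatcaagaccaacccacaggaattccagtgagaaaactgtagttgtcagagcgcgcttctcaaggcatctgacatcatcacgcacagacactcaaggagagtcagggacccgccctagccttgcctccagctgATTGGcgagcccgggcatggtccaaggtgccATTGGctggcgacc
Cyp51, chr5:4104698-4104947, minus strand: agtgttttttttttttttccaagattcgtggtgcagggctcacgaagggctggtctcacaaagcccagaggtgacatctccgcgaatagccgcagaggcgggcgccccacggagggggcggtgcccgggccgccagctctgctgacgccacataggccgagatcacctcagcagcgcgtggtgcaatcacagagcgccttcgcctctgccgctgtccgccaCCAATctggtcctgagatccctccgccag
Msmo1, chr8:64733579-64733828, minus strand: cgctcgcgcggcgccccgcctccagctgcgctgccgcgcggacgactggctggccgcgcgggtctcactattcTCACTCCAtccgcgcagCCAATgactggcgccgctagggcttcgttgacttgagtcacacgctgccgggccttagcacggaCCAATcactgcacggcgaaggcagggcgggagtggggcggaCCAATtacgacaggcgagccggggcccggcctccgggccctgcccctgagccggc
Srebf2, chr15:82147019-82147268, plus strand: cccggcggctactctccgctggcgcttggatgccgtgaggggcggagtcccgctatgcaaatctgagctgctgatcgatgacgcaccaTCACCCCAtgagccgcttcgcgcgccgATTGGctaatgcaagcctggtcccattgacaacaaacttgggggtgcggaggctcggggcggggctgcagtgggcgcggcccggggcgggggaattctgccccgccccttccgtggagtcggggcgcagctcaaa
Hsd17b7, chr1:169969206-169969455, minus strand: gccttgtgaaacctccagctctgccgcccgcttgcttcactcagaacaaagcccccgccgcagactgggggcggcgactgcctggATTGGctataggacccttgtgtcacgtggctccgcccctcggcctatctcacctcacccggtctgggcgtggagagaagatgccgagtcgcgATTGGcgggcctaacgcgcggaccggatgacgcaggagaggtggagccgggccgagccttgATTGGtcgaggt
TCACNCCA was found in Hmgcs1 (from 137 to 130 bases before the start), Msmo1 (177 to 170) and Srebf2 (162 to 155), and not in the windows of Idi1, Cyp51 and Hsd17b7. No match says only that these letters are not in this window. RefSeq entries were found for 25 of the 29 genes, with 31 listed starts. TCACNCCA stood in 3 of these 31 stretches against 3.67% of all 32851, and CCAAT in 21 of 31 against 33.9%. The motifs share the letters CCA and could overlap, which they did in none of the 6 printed stretches. The motifs and the genes shown were chosen with the values known.

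None of the 29 genes passed a Benjamini-Hochberg adjusted p of 0.05 in any comparison of groups (limma). Between hypoglycaemic KO and wild type, 0.0181% of all genes passed (5 of 27554), between normoglycaemic KO and wild type 0%, and between the KO groups 0.0544% (15). At an unadjusted p under 0.05, hypoglycaemic KO against wild type gave 4 of 29 genes higher (9.92% of all genes) and 7 lower (8.91%). The median difference over the 29 was -0.14 on the log2 scale, against 0.02 over all genes tested. Of the 29, 21 lay below 0 (47.1% of all genes) and 8 above (52.9%). Among the 20 synthesis enzymes, 17 lay below 0, with a median of -0.30. Between normoglycaemic KO and wild type, 1 gene was higher (3.15% of all) and 2 were lower (1.66%), and the median was 0.23 against 0.01 over all genes. Of the 29, 21 lay above 0 (53.4% of all genes) and 8 below (46.6%). Between the KO groups, 13 of 29 genes were lower in hypoglycaemic KO (10.1% of all genes) and 4 were higher (9.35%), with a median of -0.42 against -0.01. Here 20 lay below 0 (51.4% of all genes) and 9 above (48.6%). The KO groups did not overlap for 2 of the 29 genes, both lower in hypoglycaemic KO (3.99% of all genes), and for 0 higher (4.92%). Normoglycaemic KO and wild type did not overlap for 1 gene, lower in the KO (1.5% of all genes), and for 0 higher (2.41%). Hypoglycaemic KO and wild type overlapped for all 29, where 0.759% of all genes lay apart as higher and 0.721% as lower. These comparisons share libraries. In all, 13 of the 20 enzymes had a mean below wild type in hypoglycaemic KO and above it in normoglycaemic KO. The share of all genes with this sign pattern was not counted.

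Single libraries weighed on these counts. Without wild-type replicate 1, 4 genes passed the adjusted threshold between hypoglycaemic KO and wild type (Acat2, Hsd17b7, Sc5d and Insig2), beside 2.75% of all genes. Without hypoglycaemic KO replicate 4, 2 did (Acat2 and Sc5d), beside 1.88% of all genes. Without that same library, 4 passed between the KO groups (Fdft1, Cyp51, Sc5d and Tmem97), beside 3.56% of all genes. At an unadjusted p under 0.05, the 7 genes below wild type in hypoglycaemic KO became 2 without wild-type replicate 2 (6.99% of all genes), with a median of -0.05, and 4 without hypoglycaemic KO replicate 1 (7.33%). The 1 gene higher in normoglycaemic KO than in wild type became 6 without wild-type replicate 2 (4.02% of all genes). It became 0 without wild-type replicate 1 (3.95%), 3 (2.49%) or 4 (2.1%) or normoglycaemic KO replicate 2 (1.94%). The 2 lower became 1 without normoglycaemic KO replicate 1 (1.44% of all genes) or 2 (0.621%). Between the KO groups, the 13 lower became 6 without normoglycaemic KO replicate 2 (6.2% of all genes). The 4 higher became 7 without wild-type replicate 2 (10.4%), which acts through the shared spread, and 2 without normoglycaemic KO replicate 1 (8.28%) or 2 (4.53%). Without all 3 libraries rich in pancreas transcripts, the median against wild type was -0.01, with 4 genes higher (5.98% of all) and 2 lower (6.06%). The median between the KO groups was then -0.19, with 2 higher (4.63% of all) and 7 lower (6.1%). The part of pancreas transcripts in these differences was not tested. Over the 15 pancreas genes the median difference was 1.28 between normoglycaemic KO and wild type, -1.23 between the KO groups and -0.01 between hypoglycaemic KO and wild type. At an unadjusted p under 0.05, 1 of them was higher in normoglycaemic KO than in wild type (3.15% of all genes). In the other comparisons of groups 0 passed that p. Granulocyte markers lay higher in hypoglycaemic KO, 8 of 8 against normoglycaemic KO (median 0.24, 3 at unadjusted p under 0.05) and 6 of 8 against wild type (median 0.16, 3). Endothelial markers did too, 5 of 6 against normoglycaemic KO (median 0.16, 1) and 6 of 6 against wild type (median 0.15, 2). Kupffer cell markers lay lower, 4 of 6 (median -0.12, 0) and 5 of 6 (median -0.17, 1). Those of stellate cells and fibroblasts were lower for 4 of 6 (median -0.20, 0) and 5 of 6 (median -0.11, 0). Those of the B lineage were lower for 4 of 5 (median -0.17, 0) and 4 of 5 (median -0.05, 0). Hepatocyte markers lay lower for 6 of 8 in both comparisons, erythroid ones for 4 and 6 of 8, and bile duct ones for 1 and 2 of 5. Of all genes, 9.35% were higher at that p against normoglycaemic KO and 9.92% against wild type, and 10.1% and 8.91% were lower. The part of these cells in the results was not tested. Without the library labelled hypoglycaemic KO replicate 2, 0 of the 29 genes passed in any comparison, and the median against wild type was -0.13. Of all genes, 0.501% then passed between hypoglycaemic KO and wild type. The shares were 0.00726% between normoglycaemic KO and wild type and 0% between the KO groups.

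**Figure D1:**
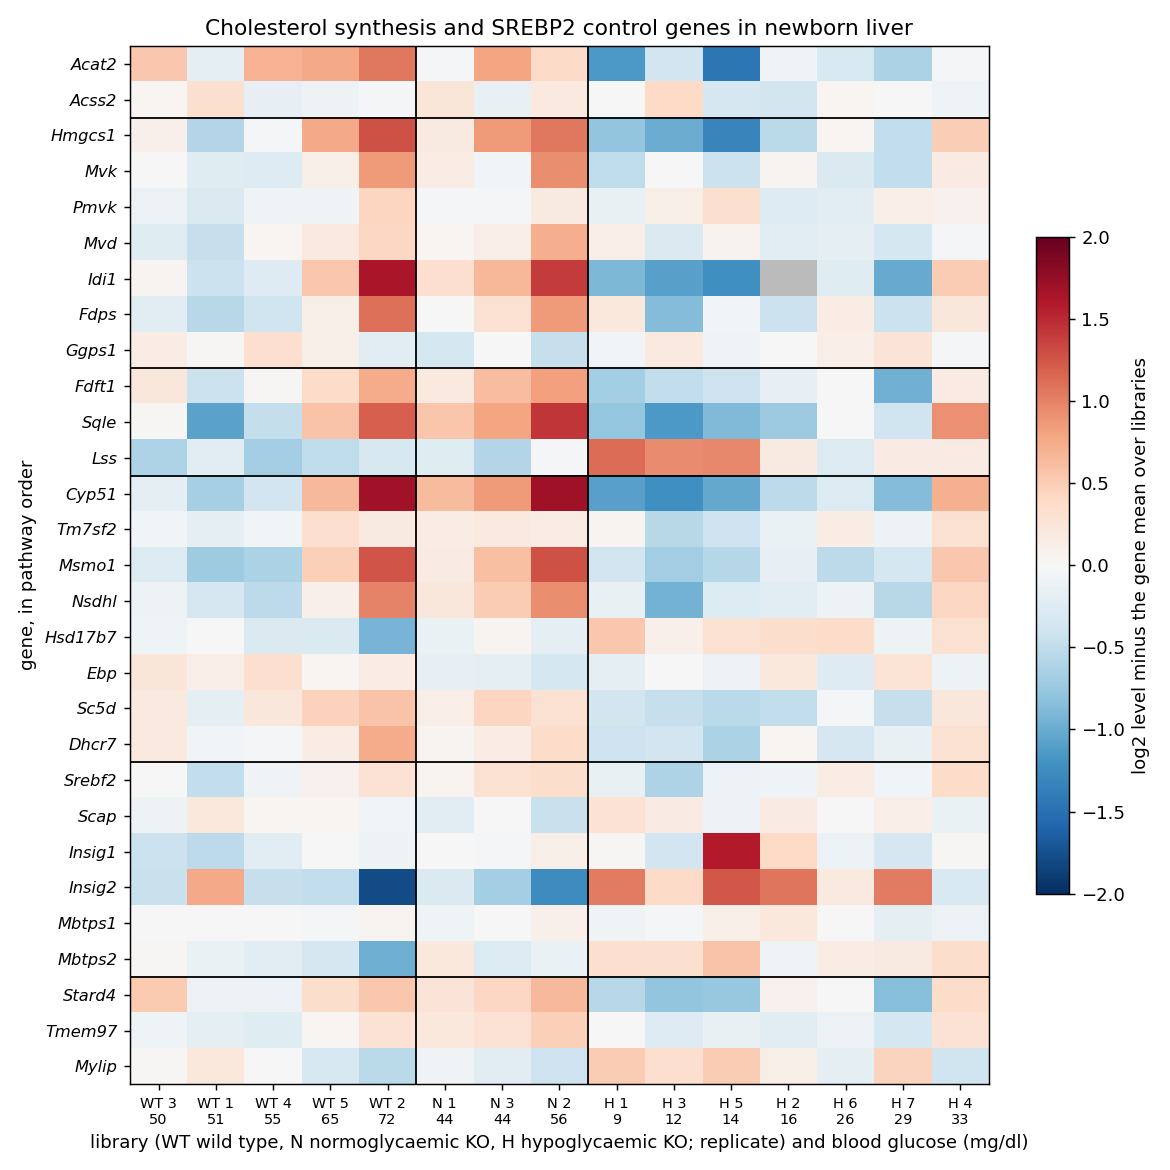
Each cell shows the log2 level of 1 gene in 1 library minus that gene's mean over libraries (red higher, blue lower, grey not measured); columns are libraries ordered by blood glucose within each group, rows are the 29 genes in pathway order. Most enzymes are reddest in wild-type replicate 2 and normoglycaemic KO replicate 2, at 72 and 56 mg/dl, while Lss is reddest in hypoglycaemic KO and Insig2 and Mylip are bluest in wild-type replicate 2.

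In acetyl-CoA supply, Acat2, the cytosolic thiolase that joins acetyl-CoA units into acetoacetyl-CoA, had log2 levels of 1.33, 2.57, 2.05, 2.20 and 2.26 in wild-type replicates 1 to 5. They were 1.49, 1.89 and 2.30 in normoglycaemic KO, and 0.06 at lowest, 1.12 at the median and 1.48 at highest in hypoglycaemic KO. All 7 hypoglycaemic KO libraries lay below all normoglycaemic ones, and only wild-type replicate 1 reached into their range. The difference from wild type was -1.14 (SE 0.27, 2.21-fold lower, adjusted p = 0.0872, limma), the smallest p of the 29 genes, and -1.05 without the 3 libraries rich in pancreas transcripts. Acss2, which makes acetyl-CoA from acetate, differed by -0.06 (SE 0.13).

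Among the mevalonate and isoprenoid enzymes, Hmgcs1, the synthase that forms HMG-CoA, had log2 levels of 3.32, 5.19, 4.02, 3.87 and 4.67 in wild-type replicates 1 to 5. It measured 4.08, 4.96 and 4.76 in normoglycaemic KO, and 2.59, 3.36 and 4.40 at the lowest, median and highest of hypoglycaemic KO. The groups overlapped, and the wild-type pups alone covered most of the range. Hypoglycaemic KO differed from wild type by -0.82 (SE 0.35, adjusted p = 0.224) and normoglycaemic KO by 0.39 (SE 0.44, adjusted p = 0.971). Idi1, which isomerises the isoprenoid unit, measured 1.56, 3.63, 2.04, 1.73 and 2.52 in wild type and 2.32, 3.38 and 2.65 in normoglycaemic KO. In hypoglycaemic KO, over 6 libraries since the spot of replicate 2 was flagged by the scanner software, it was 0.76, 1.03 and 2.50 at lowest, median and highest. Its difference from wild type was -0.97 (SE 0.40, adjusted p = 0.216), and that between the KO groups was -1.46 (SE 0.47, adjusted p = 0.133).

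The other mevalonate enzymes differed less. In hypoglycaemic KO the differences from wild type were -0.31 for Mvk (mevalonate kinase), -0.11 for Mvd (the decarboxylase) and -0.18 for Fdps (farnesyl diphosphate synthase), with SEs of 0.16 to 0.28. In normoglycaemic KO they were 0.25, 0.31 and 0.37, with SEs of 0.20 to 0.35. Fdps was at 0.21 in hypoglycaemic KO without the pancreas-rich libraries. Pmvk (phosphomevalonate kinase) differed by 0.04 and 0.06. Ggps1, which draws farnesyl diphosphate towards longer isoprenoids, was 0.46 to 0.91 in normoglycaemic KO against 0.69 to 1.25 in wild type, a difference of -0.35 (SE 0.13, adjusted p = 0.963). Its other probes gave -0.13 and -0.09.

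In squalene and lanosterol formation, Fdft1, squalene synthase, measured 1.94, 3.11, 2.60, 2.39 and 2.73 in wild type, 2.56, 3.19 and 2.99 in normoglycaemic KO, and 1.42, 1.95 and 2.54 at lowest, median and highest in hypoglycaemic KO. All hypoglycaemic KO libraries lay below all normoglycaemic ones, with a difference of -0.91 (SE 0.26, 1.87-fold lower, adjusted p = 0.109). Sqle, squalene epoxidase, measured 1.65, 3.92, 2.74, 2.24 and 3.29 in wild type, 3.27, 4.14 and 3.52 in normoglycaemic KO, and 1.58, 2.00 and 3.64 in hypoglycaemic KO. Of the hypoglycaemic KO libraries, replicate 4 alone reached the normoglycaemic range. The difference between the KO groups was -1.35 (SE 0.47, adjusted p = 0.152), and from wild type it was -0.47 (SE 0.40), or -0.07 without the pancreas-rich libraries.

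Lss, which cyclises the epoxide to lanosterol, went the other way. It measured 1.01, 0.92, 0.62, 0.54 and 0.74 in wild type, 1.00, 1.20 and 0.65 in normoglycaemic KO, and 0.96, 1.43 and 2.36 at lowest, median and highest in hypoglycaemic KO. The 3 pups with the lowest glucose, at 9, 12 and 14 mg/dl, had the highest levels (2.36, 2.20 and 2.20). Hypoglycaemic KO was higher than wild type by 0.94 (SE 0.23, 1.92-fold, adjusted p = 0.0874), and by 0.90 without the pancreas-rich libraries. Lss thus stood apart in sign from Fdft1 and Sqle, the enzymes that precede it.

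On the way from lanosterol to cholesterol, Cyp51, which demethylates lanosterol, measured -2.39, -0.05, -1.92, -2.11 and -1.08 in wild type and -1.10, -0.03 and -0.87 in normoglycaemic KO. In hypoglycaemic KO it was -2.95, -2.59 and -1.01 at lowest, median and highest. Replicate 4, the pup with the highest glucose of its group, was the only one to reach the normoglycaemic range. The difference between the KO groups was -1.67 (SE 0.49, 3.19-fold lower, adjusted p = 0.115), the largest of the 29 genes, and -1.25 without the pancreas-rich libraries. Against wild type it was -0.83 (SE 0.42) in hypoglycaemic and 0.85 (SE 0.52) in normoglycaemic KO. Without the pancreas-rich libraries the former was -0.36.

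Msmo1, the sterol methyl oxidase, measured 2.07, 4.03, 2.50, 2.14 and 3.24 in wild type, 2.94, 4.04 and 3.38 in normoglycaemic KO, and 2.08, 2.39 and 3.32 in hypoglycaemic KO. The groups overlapped, and the difference between the KO groups was -0.99 (SE 0.39, adjusted p = 0.191). Nsdhl, which acts with it, differed by -0.82 (SE 0.31). A second Nsdhl probe gave the opposite sign against wild type in hypoglycaemic KO, 0.16 where the first gave -0.29, and without the pancreas-rich libraries the first gave 0.06. Sc5d, the lathosterol oxidase, measured 3.75, 4.52, 4.14, 4.17 and 4.41 in wild type and 3.41, 3.49 and 4.17 in hypoglycaemic KO, a difference of -0.56 (SE 0.15, adjusted p = 0.109). Dhcr7, the last step of one branch, differed by -0.42 (SE 0.17, adjusted p = 0.195), and Tm7sf2, a sterol reductase, by -0.14 (SE 0.14).

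Hsd17b7, the ketosteroid reductase of the same stretch, was, after Lss, the other enzyme higher than wild type at an unadjusted p under 0.05. It measured 1.86, 0.93, 1.77, 1.56 and 1.57 in wild type, 1.72, 1.66 and 1.91 in normoglycaemic KO, and 1.75, 2.17 and 2.40 at lowest, median and highest in hypoglycaemic KO. Of the 7 hypoglycaemic KO libraries, 6 lay above all wild-type ones. The difference was 0.58 (SE 0.15, adjusted p = 0.097), with 0.65 and 0.58 at its other probes. Ebp, the sterol isomerase, was 5.38 to 5.57 in normoglycaemic KO and 5.77 to 6.07 in wild type, without overlap, a difference of -0.42 (SE 0.12, adjusted p = 0.963).

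**Figure D2:**
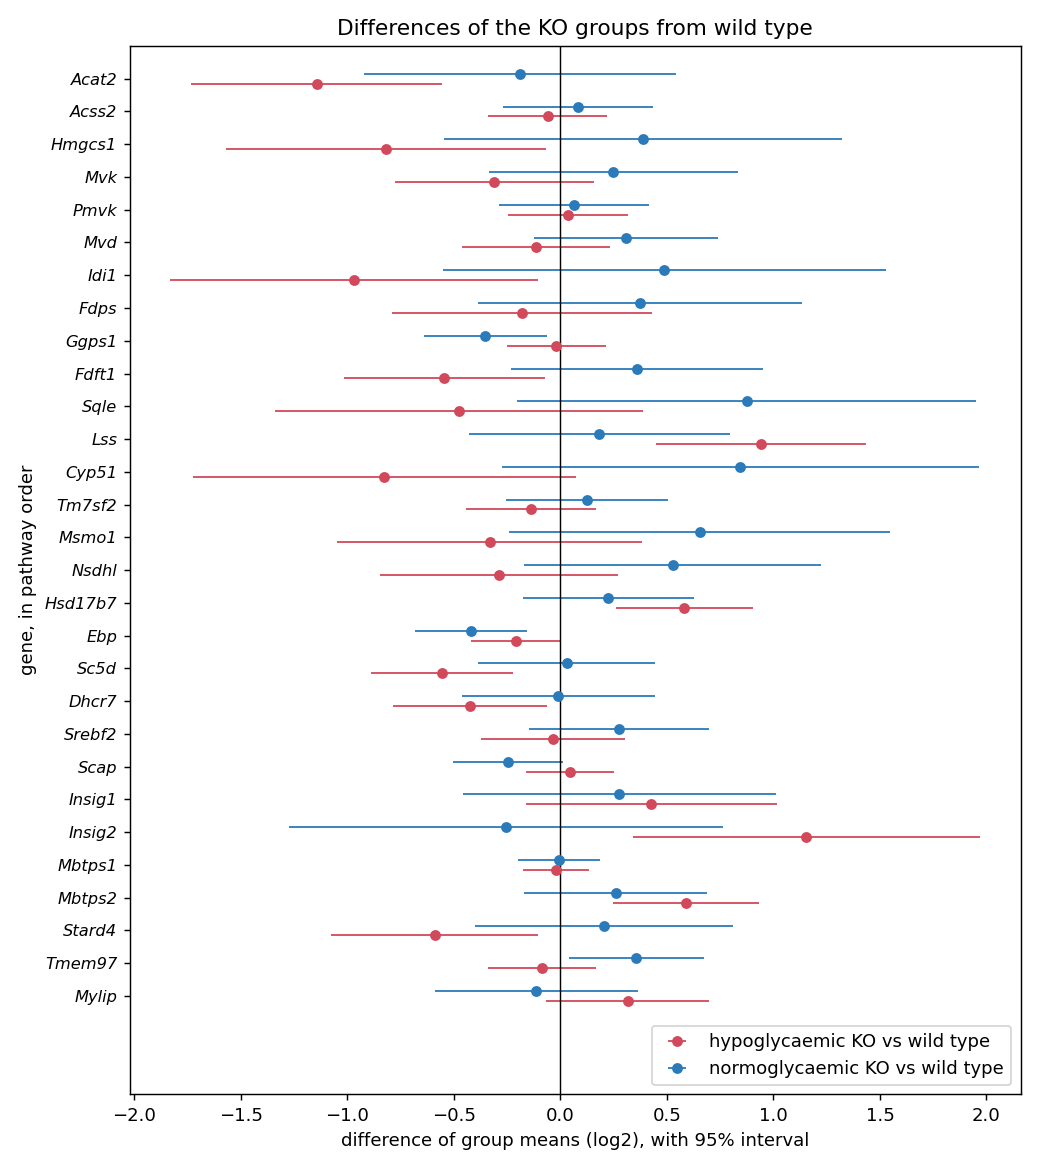
Points are differences of group means from wild type on the log2 scale with 95% intervals from limma, red for hypoglycaemic and blue for normoglycaemic KO, for the 29 genes in pathway order. The red points of Insig2 (1.15) and Acat2 (-1.14) lie farthest from 0. For 13 enzymes the red point lies below and the blue point above 0, a pattern not counted over all genes.

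Among the genes of SREBP processing, Srebf2 itself measured -0.75, 0.02, -0.27, -0.33 and -0.17 in wild type, -0.21, 0.09 and 0.04 in normoglycaemic KO and -0.88, -0.35 and 0.10 in hypoglycaemic KO. The groups overlapped, and the differences from wild type were -0.03 (SE 0.16) and 0.27 (SE 0.20). Insig2, an INSIG whose liver transcript is known to be lowered by insulin, measured 5.20, 2.65, 3.99, 3.98 and 3.95 in wild type and 4.15, 3.18 and 3.76 in normoglycaemic KO. In hypoglycaemic KO it was 4.14, 5.48 and 5.68 at lowest, median and highest. Hypoglycaemic KO was higher than wild type by 1.15 (SE 0.38, 2.23-fold, adjusted p = 0.14), and than normoglycaemic KO by 1.41 (SE 0.45, adjusted p = 0.128). A second Insig2 probe gave 1.10 and 1.43. Without the pancreas-rich libraries these were 0.87 and 1.20.

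Insig1, the INSIG that SREBP itself induces, overlapped between groups. Wild-type levels ran from -1.42 to -0.92, normoglycaemic KO levels from -0.94 to -0.79 and hypoglycaemic KO levels from -1.29 to 0.69, where replicate 5 (0.69) stood above the rest (at most -0.51). Mbtps2, the site-2 protease, measured -1.18, -2.02, -1.02, -1.27 and -1.39 in wild type and -1.13, -0.73 and -0.48 in hypoglycaemic KO, a difference of 0.59 (SE 0.16, adjusted p = 0.105). Its other probes gave 0.46 and 0.12. Mbtps1, the site-1 protease, was 4.12 to 4.51 over all libraries and differed by at most 0.02 between groups. For Scap, the escort of SREBP2, hypoglycaemic KO stood at 0.05 (SE 0.10) from wild type and normoglycaemic KO at -0.25 (SE 0.12).

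In sterol transport and receptor turnover, Stard4, a carrier of cholesterol in the cytosol, measured 2.27, 2.93, 2.91, 2.28 and 2.74 in wild type, 2.64, 3.04 and 2.80 in normoglycaemic KO and 1.54, 1.84 and 2.75 in hypoglycaemic KO. Its difference from wild type was -0.59 (SE 0.23, adjusted p = 0.181), and -0.21 at a second probe. Tmem97, a sterol-regulated membrane protein, was higher in normoglycaemic KO than in wild type by 0.36 (SE 0.15, adjusted p = 0.963). Mylip, a ubiquitin ligase that removes lipoprotein receptors, measured 2.75, 1.99, 2.55, 2.52 and 2.21 in wild type, 2.45, 2.11 and 2.31 in normoglycaemic KO and 2.13, 2.86 and 3.04 in hypoglycaemic KO. The groups overlapped, with a difference of 0.32 (SE 0.18).

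Levels were also set against blood glucose among the pups of a group. A model with 3 group means and 1 common slope gave the change in log2 level per 10 mg/dl of glucose. None of the 29 genes and 0% of all genes passed an adjusted p of 0.05. At an unadjusted p under 0.05 (limma), 15 of 29 genes had a slope above 0 (8.41% of all genes) and 3 below 0 (9.67%). The median slope was 0.17 over the 29 genes and 0.25 over the 20 enzymes, against -0.01 over all genes. Of the 29, 18 had slopes above 0 (44.8% of all genes) and 11 below (55.2%), and of the enzymes 15 of 20 lay above.

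Steepest were Cyp51 at 0.73 (SE 0.12, adjusted p = 0.0561) and Sqle at 0.70 (SE 0.11, adjusted p = 0.0561), at ranks 20 and 18 by p among 27554 genes. Idi1 followed at 0.62 (SE 0.13, adjusted p = 0.0597, without the library labelled hypoglycaemic KO replicate 2), Hmgcs1 at 0.60 (SE 0.11, adjusted p = 0.0566, rank 38) and Msmo1 at 0.52 (SE 0.12, adjusted p = 0.0696). These are the early, middle and late steps of the route from acetyl-CoA to cholesterol. Among hypoglycaemic KO pups ordered by glucose (9, 12, 14, 16, 26, 29 and 33 mg/dl), Sqle measured 1.95, 1.58, 1.84, 2.00, 2.72, 2.33 and 3.64. Among wild-type pups at 50, 51, 55, 65 and 72 mg/dl it measured 2.74, 1.65, 2.24, 3.29 and 3.92. In both groups the pups with the most glucose had the highest level, while the lower ones were not in order.

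Shallower slopes above 0 at an unadjusted p under 0.05 were, among the enzymes, those of Fdps (0.36), Nsdhl (0.35), Acat2 (0.30), Mvk (0.26), Fdft1 (0.25), Dhcr7 (0.24), Sc5d (0.21) and Tm7sf2 (0.17). Srebf2 also had a slope above 0, of 0.23 (SE 0.06, adjusted p = 0.0914), as did Tmem97, of 0.13 (SE 0.06). Stard4 (0.23), Mvd (0.14) and Pmvk (0.11) did not reach that p. Below 0 were Insig2 at -0.53 (SE 0.15, adjusted p = 0.105), Mylip at -0.28 (SE 0.06, adjusted p = 0.071) and Hsd17b7 at -0.19 (SE 0.07, adjusted p = 0.163). Lss had -0.19 (SE 0.12). Insig2 was lowest in the wild-type pup with the most glucose (2.65 at 72 mg/dl), where Sqle and Cyp51 were highest in wild type.

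**Figure D3:**
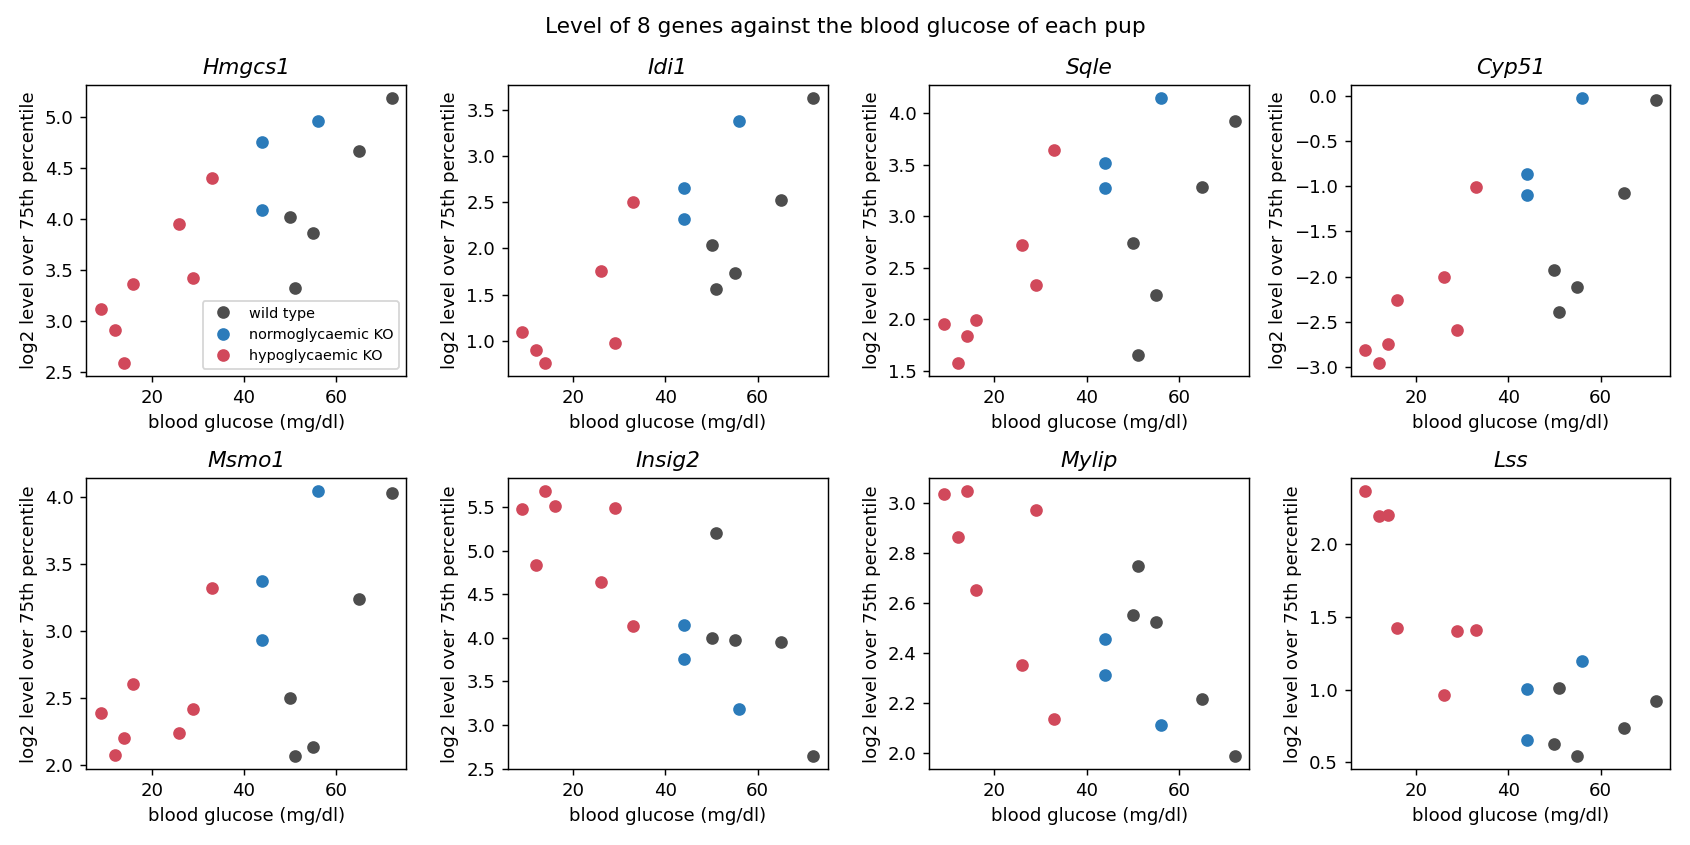
Each point is 1 pup, with its blood glucose in mg/dl on the x axis and the log2 level of 1 gene on the y axis, coloured by group. Within each colour Hmgcs1, Idi1, Sqle, Cyp51 and Msmo1 tend upwards and Insig2 and Mylip downwards; Lss is highest in the 3 pups at 9 to 14 mg/dl.

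Each group was also given its own slope, an alternative added after seeing the data. Of the 29 genes, 15 had slopes above 0 in all 3 groups, 5 below 0 in all 3, and 9 had slopes of both signs. The shares of all genes with such signs were not counted. Cyp51 had 0.95 (SE 0.19) in wild type, 0.80 (SE 0.38) in normoglycaemic KO and 0.56 (SE 0.16) in hypoglycaemic KO. Sqle had 0.80 (SE 0.20), 0.63 (SE 0.39) and 0.65 (SE 0.17). Others were shallow in hypoglycaemic KO. Fdps had 0.63 (SE 0.19) in wild type and 0.12 (SE 0.16) in hypoglycaemic KO, Mvk 0.41 (SE 0.14) and 0.07 (SE 0.12). Fdft1 had 0.37 (SE 0.18) and 0.15 (SE 0.15). Sc5d (0.26 and 0.21) and Dhcr7 (0.27 and 0.23) differed less between these groups. The normoglycaemic KO slopes rest on replicate 2 alone, the other 2 pups both being at 44 mg/dl. Between hypoglycaemic KO and wild type, 0 genes had a different slope at an adjusted p of 0.05 (limma). At an unadjusted p under 0.05, 4 of the 29 did (8.67% of all genes). They were Mvd (0.34 in wild type, -0.06 in hypoglycaemic KO), Msmo1 (0.82 and 0.27), Lss (0.06 and -0.46) and Mbtps2 (-0.37 and -0.03).

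The scan slides were checked as batches, since both held all groups. Slide 1 held all 3 libraries rich in pancreas transcripts, so leaving out a slide and leaving out these libraries are not separate checks. It held 2 wild-type and 2 normoglycaemic KO libraries, and the pancreas-rich one had the more glucose in each pair. On slide 1 alone, Cyp51 had a slope of 0.92, Sqle 0.90, Hmgcs1 0.72 and Insig2 -0.78. On slide 2 alone, the same genes had 0.44, 0.45, 0.61 and -0.19, and Idi1 had 0.36 and Msmo1 0.34. Slide 2 holds 1 normoglycaemic KO library, so only sizes are given for it. The same sign on both slides does not show that a slope is apart from 0 on slide 2. Among the shallower slopes, Acat2 had 0.41 there, Tm7sf2 0.28, Sc5d 0.17, Dhcr7 0.16 and Srebf2 0.09. Near 0 on slide 2 were Mvk (0.06), Fdps (0.06), Nsdhl (0.05), Tmem97 (0.01) and Fdft1 (-0.02). With the 3 pancreas-rich libraries left out, Cyp51, Sqle, Hmgcs1 and Insig2 had 0.57, 0.63, 0.57 and -0.46 over both slides. In that subset Fdps had 0.08 and Nsdhl 0.14, 8 of the 29 genes had slopes above 0 at an unadjusted p under 0.05 (7.78% of all genes), and the median slope was 0.08. Wild-type replicate 2 and normoglycaemic KO replicate 2, which have the most glucose in their groups, are both rich in pancreas transcripts and hold the highest level of all 15 libraries for 8 and 6 of the 20 enzymes. Hypoglycaemic KO replicate 3, also rich in them, held the lowest level of 5. The median slope of the 15 pancreas genes was 0.53, with 14 above 0 but 0 at an unadjusted p under 0.05 (8.41% of all genes). That of 6 endothelial markers was -0.11, with 6 below 0 and 3 at that p (9.67% of all genes). The part of either in the slopes was not tested. Without the library labelled hypoglycaemic KO replicate 2, the median slope of the 29 genes was 0.18. Without hypoglycaemic KO replicate 7, 10 of the 29 genes passed an adjusted p of 0.05, beside 3.59% of all genes. Without replicate 1 of that group, 3 did (Hmgcs1, Sqle and Cyp51), beside 0.174% of all genes.

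**Figure D4:**
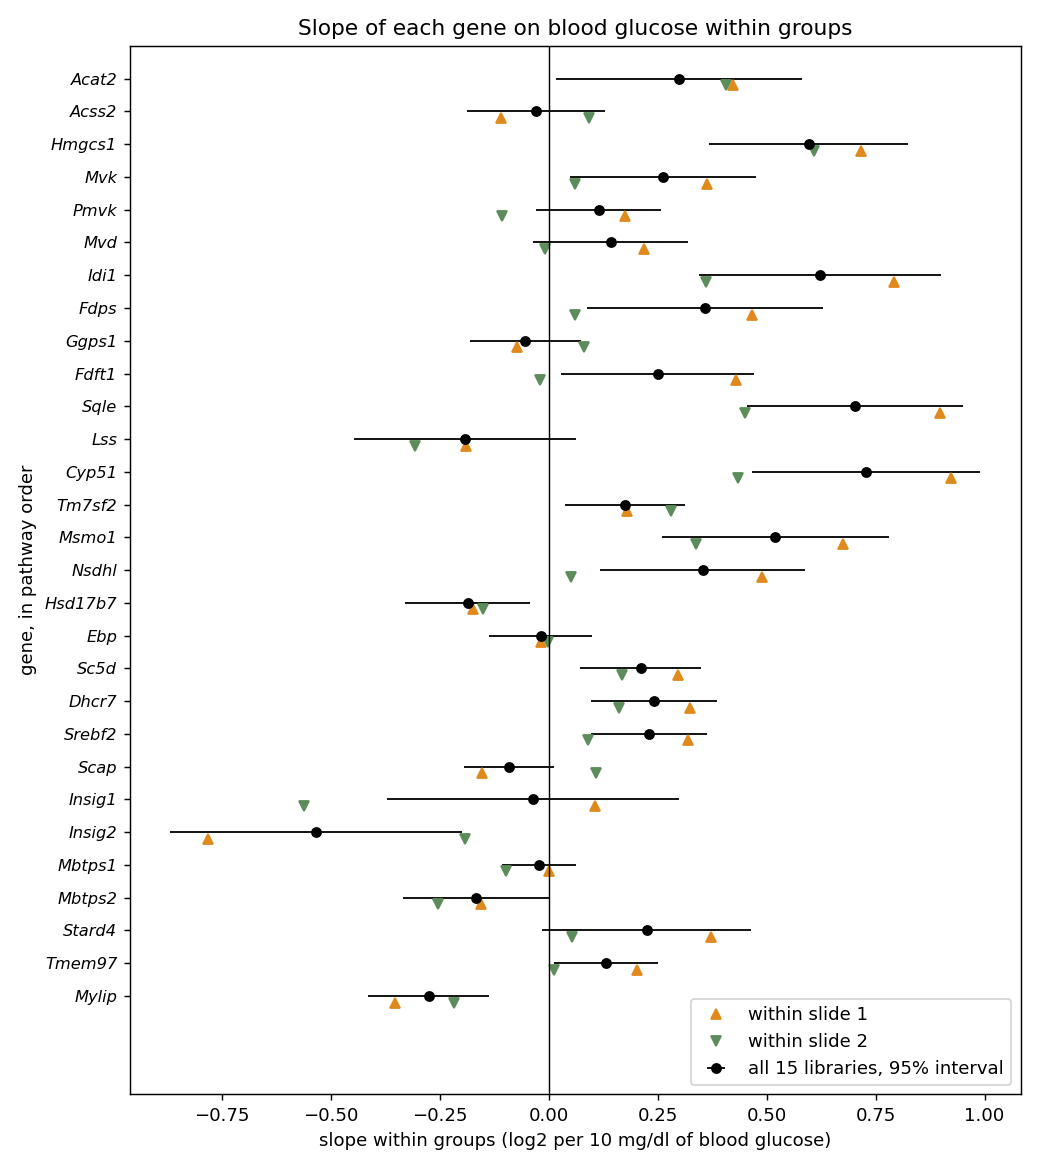
Black points are the slopes of log2 level on blood glucose within groups, per 10 mg/dl, with 95% intervals over all 15 libraries; triangles are the slopes within slide 1 and slide 2. Cyp51, Sqle, Hmgcs1, Idi1 and Msmo1 lie above 0 and Insig2, Mylip and Hsd17b7 below 0 on both slides, for which no intervals are drawn. Fdft1, Pmvk, Mvd, Mvk, Fdps, Nsdhl and Tmem97 lie near or below 0 on slide 2.

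Other genes of the wider pathway were read from lists of helpers, isoprenoid branches, sterol regulators, oxysterol enzymes and export and esterification genes, all of which were measured except 1 of 4 oxysterol enzymes. None passed an adjusted p of 0.05 in any comparison (limma). Among the 6 helpers, 3 had slopes above 0 at an unadjusted p under 0.05 (8.41% of all genes) and 1 below (9.67%). Acly, which makes cytosolic acetyl-CoA from citrate, had 0.18 (SE 0.04, adjusted p = 0.0597), and Cyb5r3, which feeds electrons to the sterol oxidases, had 0.24 (SE 0.06, adjusted p = 0.0771). Por, the reductase that serves Cyp51, had -0.34 (SE 0.09, adjusted p = 0.0951), opposite in sign to Cyp51. Among the 10 isoprenoid branch genes, 2 had slopes above 0 and 0 below at that p. Of 8 sterol regulators the counts were 2 and 0, of 3 oxysterol enzymes 0 and 1, and of 10 export and esterification genes 1 and 2. The same shares of all genes, 8.41% above and 9.67% below, stand beside each of these lists. Between the KO groups, Icmt, the methyltransferase that finishes isoprenylated proteins, differed by -0.36 (adjusted p = 0.0967), Acly by -0.43 and Cyb5r3 by -0.62 (both 0.119), all lower in hypoglycaemic KO. Abcg5 and Abcg8, which together pump sterols into bile, stood at -1.70 (SE 0.50) and -1.67 (SE 0.56) between normoglycaemic KO and wild type, and Acly at 0.28, each with an adjusted p of 0.963. Hsd3b7, an enzyme of bile acid synthesis, stood at -0.44 between hypoglycaemic KO and wild type, and Cyb5r3 at -0.49, with adjusted p of 0.122 and 0.134.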

How the data were processed

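Liver RNA of 15 mouse pups was measured on 1-colour Agilent arrays, 1 per pup. The deposited scanner files hold intensity values from Agilent Feature Extraction (version 10.10, per the submitters' processing notes), with background subtraction within the array and no scaling between arrays, per the file headers. The deposited log2 values of the series matrix, made with limma per the same notes, cover 40048 probes, correlate at 0.99986 to 0.99999 with the logarithm of the median spot signal, and have column medians of 7.80; how they were centred is not given in the sources used here. They served as an alternative.

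From the processed signal, log2 levels were computed by dividing it by the 75th percentile on its array. Of 62976 spots per array, 3671 controls were left out, and 176 to 546 flagged spots were set to missing; 0 were saturated. Between 57.9% and 76.2% of the spots other than controls were well above background. The number of arrays limits the precision. Probes well above background on at least 3 arrays were kept (41153), and each gene (27554) was read from its brightest probe on average. Probe positions in the files are of mm9 and are not printed.

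Models were fitted with limma 3.58.1 in R 4.3.3 over all 15 libraries and tested on simulated data: group means, and group means with a common slope on blood glucose. The simulated noise was independent for each gene and library. It held no slide, litter or tissue effect, so it cannot say how the fits behave under these. P-values were adjusted by Benjamini-Hochberg over all genes. A fold is 2 to the power of a difference. All 29 genes are named whatever their result, and of the other pathway lists the 3 genes with the smallest p in each comparison, of which 1 is not reported here. The genes and lists were chosen with earlier results of these data known. Own slopes per group, slide as a block with the slope, and leaving out wild-type and normoglycaemic KO replicates 2 together were chosen after seeing the data. The other alternatives covered background correction, scaling, probe filters, slide, replicate number, groups fitted and libraries left out. Replicate numbers were checked as pairs: 5 of 11 same-numbered pairs deviated together (r over 0.1), with r from -0.18 to 0.30. Differently numbered pairs were not set beside them, so whether the numbers pair pups is not settled.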

Additional observations from a re-analysis of the deposited data

Results flagged for a closer look

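Over 58 sets of wild-type or hypoglycaemic KO libraries, 3 held a library far from the rest by Dixon's gap ratio; chance flags about 1 in 20. Pmvk in wild-type replicate 2 was at a log2 level of 3.56 against 2.84 to 3.04 in the other wild-type libraries. Msmo1 in hypoglycaemic KO replicate 4 was at 3.32 against 2.08 to 2.61. Insig1 in hypoglycaemic KO replicate 5 was at 0.69 against -1.29 to -0.51.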

How the results depend on the processing

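Under the alternatives and with each library left out in turn, 19 of 29 genes kept 1 sign between hypoglycaemic KO and wild type, 18 between normoglycaemic KO and wild type, 25 between the KO groups and 19 for the slope. Of 3393 single values, 54 passed the adjusted threshold where the main value had not and 9 turned the sign of a value larger than its SE. These 9 were, within slide 2, Scap 0.00819 and Mbtps2 -0.0918 (normoglycaemic KO against wild type) and the slopes of Pmvk -0.107, Mvd -0.00937, Fdft1 -0.0188 and Scap 0.109; Mvd -0.0638 in the slope of hypoglycaemic KO alone; Lss 0.0196 in the slope with the replicate block; and Nsdhl 0.0639 (hypoglycaemic KO against wild type) without the pancreas-rich libraries. The cause was not tested. Slide 2 holds 1 normoglycaemic KO library, which is there assumed to vary like the other groups.

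Members passing in the slope numbered 6 with normexp background correction, 6 with probes well above background on all 15 arrays, 4 with the deposited log2 values, 1 with quantile normalization and 14 with glucose alone without group terms, a fit that mixes in the group differences. All genes passing for the slope were 349, 537, 290, 21 and 4647 in these 5, and 1 within slide 1. The median slope was 0.0658 with glucose alone, 0.0749 in hypoglycaemic KO alone, 0.0594 within slide 2, 0.0824 without the pancreas-rich libraries and 0.0928 without wild-type and normoglycaemic KO replicates 2; the median between the KO groups was -0.19 without the pancreas-rich libraries.

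Genes passing between hypoglycaemic KO and wild type (5) numbered 50 with normexp, 25 with median scaling, 50 with the deposited values, 2 without a probe filter, 77 with all 15 arrays, 3 with only the groups compared and 0 within either slide, without the pancreas-rich libraries and without both replicates 2. Between normoglycaemic KO and wild type (0) they numbered 2 with quantile normalization, 1 with median scaling, 2 with the deposited values, 1 with all 15 arrays, 3 with only the groups compared and 4 within slide 1. Between the KO groups (15) they numbered 135 with normexp, 5 with median scaling, 30 with the deposited values, 0 without a probe filter, 166 with all 15 arrays, 9 with mean probes, 2 with only the groups compared, and 0 with slide as a block, within slide 1, without the pancreas-rich libraries and without both replicates 2. Slide 2 holds 1 normoglycaemic KO library, so its counts with that group are not given.

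With the replicate block, 0 genes passed between hypoglycaemic KO and wild type, 1 between normoglycaemic KO and wild type, 0 between the KO groups and 1 for the slope, and 0 members passed in each.

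With each library left out, genes passing ranged from 0 to 757 (hypoglycaemic KO against wild type, most without wild-type replicate 1), 0 to 7, 0 to 980 (KO groups, most without hypoglycaemic KO replicate 4) and 0 to 990 (slope, most without hypoglycaemic KO replicate 7). Members passing ranged from 0 to 4, 0 to 0, 0 to 4 and 0 to 10, and medians from -0.22 to -0.05, 0.10 to 0.25, -0.48 to -0.27 and 0.14 to 0.23.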
